A study of Homo sapiens with 16 samples.

Results

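A group of 10 genes, PCDH1, NIBAN1, SLC30A3, GIPR, BATF3, PPP2R2C, VWA5B2, LRRN1, RIMS2 and CRHR1, is described here at its start sites for H3K4me3 and H3K27me3, out of 20007 protein-coding genes. The genes were picked because H3K4me3 peaks appeared with octanoic acid at sites that carried H3K27me3 in vehicle, or because the study lists them for both marks. The genes were thus selected on the OA against vehicle peaks of both marks, and those changes are given as a description, with no test. The libraries came from CUT&RUN, in which a nuclease tethered to an antibody cuts the DNA beside a histone mark, in MCF-10A, a line of nontransformed breast epithelial cells of human origin. Cells received vehicle (PBS) or 5 mM octanoic acid (OA), a medium-chain fatty acid, for 24 hours. Each condition had 3 biological replicates for each antibody. Untreated cells gave 2 H3K4me3 libraries and 2 IgG libraries as controls. All cells were of this 1 line, and about 900000 cells went into each of the 16 libraries.

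H3K4me3 is laid down at the start sites of active genes by the COMPASS family of methyltransferases. H3K27me3 is laid down by Polycomb repressive complex PRC2 (with EZH as its enzyme) over silent genes, many of them regulators and neuronal genes outside the nervous system. A start site with both marks is called bivalent, and gain of the first with loss of the second is known from genes that are switched on during differentiation. Most of the genes described here are best known outside mammary epithelium. GIPR and CRHR1 are class B receptors for the incretin hormone GIP and for corticotropin-releasing hormone. SLC30A3 loads zinc into synaptic vesicles, and RIMS2 is a scaffold of the presynaptic active zone. PCDH1 is an adhesion protein of the protocadherin family, and LRRN1 is a neuronal membrane protein with leucine-rich repeats. NIBAN1 is induced by cellular stress, BATF3 is a basic leucine zipper factor that pairs with JUN proteins, and PPP2R2C is a regulatory B55 subunit of protein phosphatase PP2A. VWA5B2 holds a von Willebrand factor A domain.

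The DNA under the strongest H3K4me3 peaks of OA is shown for the 5 genes at which every OA library lay above every vehicle library in H3K4me3 and below it in H3K27me3. Each line is a stretch of 201 bp of hg38, written 5′ to 3′ on the strand of the gene, with every CpG in capitals because H3K4me3 usually marks CpG-rich start sites. The stretch is centred on the summit of the strongest H3K4me3 peak, or on the nearest point to it at which no annotated untranslated region is included. PCDH1 is chr5:141877995-141878195 (minus strand), 215 to 415 bp downstream of its canonical start site. NIBAN1 is chr1:184974156-184974356 (minus strand), 152 to 352 bp downstream, with its centre 107 bp from the summit. GIPR is chr19:45668954-45669154 (plus strand), 733 to 933 bp downstream, and BATF3 is chr1:212699510-212699710 (minus strand), 130 to 330 bp downstream. For PPP2R2C the sites called in at least 2 libraries are shown: chr4:6563255-6563455 just downstream of its most upstream start site and chr4:6471535-6471735 across an internal one (minus strand). Not shown are a PPP2R2C site of OA replicate 3 alone and an upstream PCDH1 region, with 10 CpGs in its own stretch.
PCDH1: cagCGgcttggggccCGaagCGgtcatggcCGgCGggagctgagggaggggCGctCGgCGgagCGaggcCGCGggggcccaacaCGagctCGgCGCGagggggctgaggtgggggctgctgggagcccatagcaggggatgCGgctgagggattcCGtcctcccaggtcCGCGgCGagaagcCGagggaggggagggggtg
NIBAN1: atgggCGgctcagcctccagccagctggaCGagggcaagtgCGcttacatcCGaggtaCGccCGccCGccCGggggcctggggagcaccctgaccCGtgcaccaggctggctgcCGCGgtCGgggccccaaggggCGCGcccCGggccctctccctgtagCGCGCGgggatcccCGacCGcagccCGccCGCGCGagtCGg
GIPR: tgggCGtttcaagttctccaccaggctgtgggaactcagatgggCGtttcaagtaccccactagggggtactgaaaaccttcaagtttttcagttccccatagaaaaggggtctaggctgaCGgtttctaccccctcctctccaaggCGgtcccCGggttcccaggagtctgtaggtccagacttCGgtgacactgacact
BATF3: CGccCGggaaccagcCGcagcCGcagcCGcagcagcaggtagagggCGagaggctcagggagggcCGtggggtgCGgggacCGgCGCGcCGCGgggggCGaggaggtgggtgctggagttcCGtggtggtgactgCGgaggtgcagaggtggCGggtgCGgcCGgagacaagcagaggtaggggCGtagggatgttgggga
PPP2R2C upstream: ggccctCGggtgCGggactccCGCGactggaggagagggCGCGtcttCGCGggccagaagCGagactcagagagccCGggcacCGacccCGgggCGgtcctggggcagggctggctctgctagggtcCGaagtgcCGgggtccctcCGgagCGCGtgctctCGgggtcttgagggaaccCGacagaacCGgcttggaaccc
PPP2R2C internal: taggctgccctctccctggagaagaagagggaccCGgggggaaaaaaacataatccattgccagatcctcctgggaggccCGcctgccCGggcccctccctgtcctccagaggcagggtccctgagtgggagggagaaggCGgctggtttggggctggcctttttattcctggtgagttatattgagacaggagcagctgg
The stretches of PCDH1, NIBAN1, BATF3 and upstream PPP2R2C hold 21, 25, 20 and 21 CpGs, whereas those of GIPR and internal PPP2R2C hold 6 and 4. The PCDH1 stretch also lay inside H3K4me3 peaks of vehicle replicates 1 and 2, and the internal PPP2R2C stretch inside one of vehicle replicate 2, whereas no vehicle H3K4me3 peak touched the other 4. The NIBAN1 stretch lay wholly inside peaks of all 3 OA libraries for H3K4me3 and of all 3 vehicle libraries for H3K27me3. No OA H3K27me3 peak touched any of these stretches except 13 bp of the PCDH1 stretch in OA replicate 1.

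Extent means the base pairs covered by the peaks of a library within 3 kb of any GENCODE start site of a gene. H3K4me3 extent was higher in every OA than in every vehicle library at 8 of the 10 genes, all but SLC30A3 and VWA5B2, against 6.20% of all protein-coding genes. A merged H3K4me3 region with a peak in every OA library and none in vehicle, termed OA-only, lay at 8 genes, all but PCDH1 and SLC30A3, against 1.33% of all genes. In the opposite direction, 0 of the 10 genes had a vehicle-only H3K4me3 region (0.0200% of all genes) or a lower H3K4me3 extent in every OA library (0.205%). H3K27me3 extent was lower in every OA than in every vehicle library at 5 genes, PCDH1, NIBAN1, GIPR, BATF3 and PPP2R2C, against 1.51% of all genes. A vehicle-only H3K27me3 region lay at 3 genes, GIPR, BATF3 and PPP2R2C, against 0.565%. None of the 3 kept that region with stricter calls: at a q-value of at most 0.01 the genes with a vehicle-only region were NIBAN1, SLC30A3 and RIMS2 (0.240% of all genes), and with the 9091 strongest peaks of each library NIBAN1 and SLC30A3 (0.175%). An OA-only H3K27me3 region (0.0600% of all genes) and a higher H3K27me3 extent in every OA library (0.105%) were found at 0 of the 10. Both kinds of region lay at the same 3 genes, against 0.0350%. Both extents separated at 5 genes, against 0.230% or 46 genes in all, and the opposite combination was found at 0 genes. These shares follow from how the genes were picked and show no more than that. The H3K27me3 counts were sensitive to the strength of the calls: when each list was cut to its 9091 strongest peaks, 2 genes, NIBAN1 and SLC30A3, were lower in every OA library (0.435% of all genes), and with a q-value of at most 0.01 there were 3, NIBAN1, SLC30A3 and RIMS2 (0.445%). The number with a vehicle-only region was 6 without vehicle replicate 1 and 5 without vehicle replicate 3, and the shares of all genes were then 2.16% and 1.15%.

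**Figure D1:**
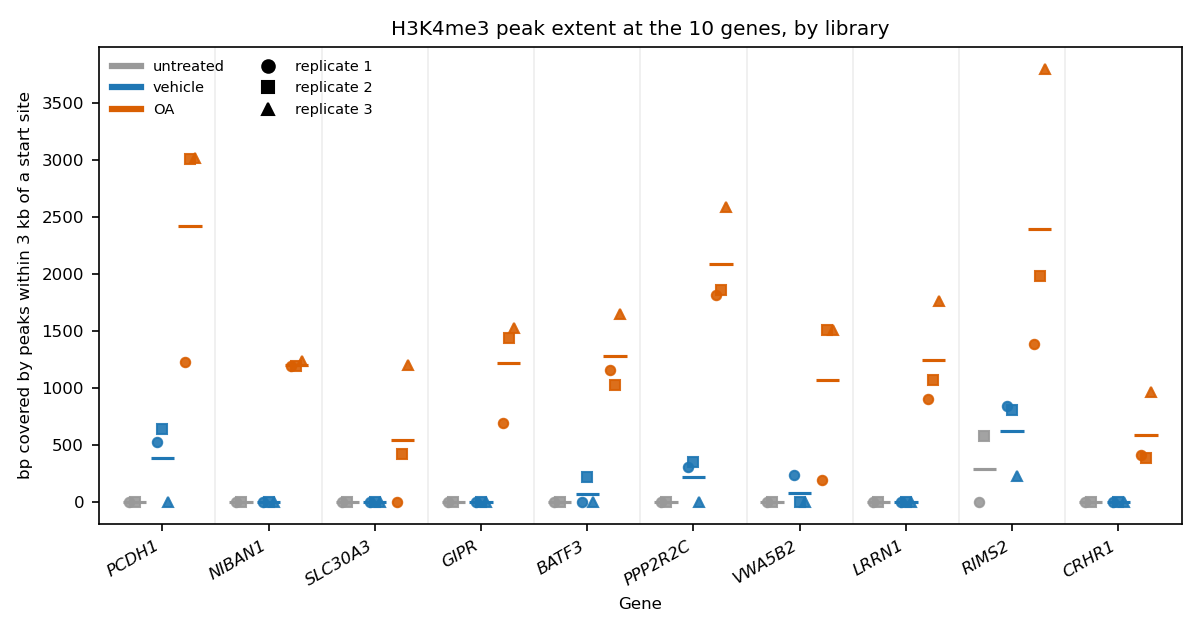
H3K4me3 extent in bp (y axis) at each gene (x axis) in 2 untreated, 3 vehicle and 3 OA libraries. Each symbol is 1 library and each bar is a group mean. OA libraries reach 3005 and 3018 bp at PCDH1 while vehicle stays at 640 bp or less, and NIBAN1, GIPR, LRRN1 and CRHR1 are at 0 in every vehicle library beside OA values of 387 to 1764 bp.

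The libraries differed in how many peaks they held. H3K4me3 lists had 16086 to 19953 peaks in vehicle and 17975 to 21033 in OA, and H3K27me3 lists had 18801 to 47648 in vehicle and 9091 to 32363 in OA. H3K4me3 peaks covered 10.3 to 17.8 Mb in vehicle, least in replicate 3, and 14.3 to 21.2 Mb in OA, so OA lists tended to cover more. OA replicate 3 had the fewest H3K27me3 peaks, covering 3.50 Mb against 9.42 to 25.1 Mb in the other libraries. Leaving it out left 5 genes with lower H3K27me3 extent in every OA library (1.62% of all genes) and 3 with a vehicle-only region (0.655%). The lowest background shared by many peaks, a measure of relative depth only if no control library set it, was 0.450 to 0.822 reads in vehicle and 0.633 to 0.853 in OA for H3K4me3, and was not recoverable for H3K27me3. Among 6 markers of mammary basal epithelium, KRT5, ITGA6 and EGFR had H3K4me3 in all 6 libraries, CDH1 in 5 and TP63 in 4. KRT14, a basal keratin, was covered in vehicle replicates 1 and 2 (1121 and 747 bp) and in 0 OA libraries. Of 6 genes of other cell types, VIM had H3K4me3 in all 6 libraries, COL1A1 in 5, ESR1 in OA replicate 3 alone and PTPRC in vehicle replicate 3 alone (165 bp), and PGR and PECAM1 in none. The active promoters GAPDH, ACTB, EEF1A1 and RPLP0 carried H3K4me3 in all 6 libraries. EEF1A1 went against its list with 255 bp of H3K27me3 in OA replicate 1, and it also had an OA-only H3K4me3 region. Of 6 classic Polycomb targets, 0 had H3K4me3 and 4 had H3K27me3. SOX1 and PAX7 had neither mark, and PAX6 had H3K27me3 in all 6 libraries and a vehicle-only region. The part of these markers and depths in the results was not tested.

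NIBAN1 (ENSG00000135842.17, chr1:184790724-184974508, minus strand) separated without overlap in both marks. Its H3K4me3 extent was 0 bp in vehicle replicates 1, 2 and 3 and 1191, 1188 and 1235 bp in OA replicates 1, 2 and 3 (1205 ± 26.3 bp, SD, n = 3). Its H3K27me3 extent was 2801, 3723 and 3352 bp in vehicle and 710, 1061 and 571 bp in OA (3292 ± 464 and 781 ± 253 bp, SD, n = 3). The lowest vehicle value of H3K27me3 was above the highest OA value, and the OA values of H3K4me3 lay close together. The new peak ran from -278 to 968 bp relative to the start site, over the first exon and intron. In vehicle an H3K27me3 peak lay over the same start site in every library, at percentiles 93.9, 95.5 and 83.5 of the −log10 p of its own list. Of the H3K4me3 footprint in OA, meaning the bases covered in at least 2 of 3 libraries, 93.2% lay on the H3K27me3 footprint of vehicle. In the H3K27me3 footprint of OA, 0 bp of that overlap were kept. Elsewhere in the window 497 of 2170 bp (22.9%) kept H3K27me3. An intronic H3K27me3 region 102553 to 104060 bp downstream was called in all 6 libraries, whereas OA replicates 1 and 3 had no H3K27me3 call at the start site. OA replicate 2 had a peak across it, from -143 to 36 bp, inside the H3K4me3 peak of OA replicate 2.

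BATF3 (ENSG00000123685.9, chr1:212686417-212699840, minus strand) had a start-site H3K4me3 peak in each OA library and in no vehicle library. H3K4me3 extent was 0, 221 and 0 bp in vehicle and 1160, 1026 and 1645 bp in OA. The lone vehicle peak lay -1601 to -1381 bp from the start, outside the region of the OA peaks, and ranked at percentile 1.30 of its list. H3K27me3 extent was 1970, 2791 and 1359 bp in vehicle and 448, 982 and 0 bp in OA (2040 ± 719 and 477 ± 492 bp, SD, n = 3), with no overlap of the groups. Vehicle-only H3K27me3 regions lay 86 to 1315 bp and 8804 to 10049 bp downstream. An upstream region, -1665 to -910 bp from the start, was called in 2 vehicle and 2 OA libraries. With the 9091 strongest peaks of each list the mean H3K27me3 difference turned to 56 bp higher in OA, and with a q-value of at most 0.01 it was -735 bp. New H3K4me3 covered 597 bp (33.0%) of the vehicle H3K27me3 footprint, and 0 bp there kept H3K27me3.

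PPP2R2C (ENSG00000074211.14, chr4:6320578-6563600, minus strand) had 3 H3K4me3 sites. Extent was 307, 348 and 0 bp in vehicle and 1814, 1859 and 2588 bp in OA. The site at the most upstream start site was OA-only, at 686, 539 and 805 bp. The internal site, 680 to 2073 bp downstream of the canonical start, was already called in vehicle replicates 1 and 2, at pileups of 12 and 10 reads, against 31, 121 and 91 reads in OA. A further site, 73 to 474 bp downstream of the canonical start, was called in OA replicate 3 alone (402 bp, 44 reads). H3K27me3 extent was 747, 662 and 425 bp in vehicle and 0, 178 and 283 bp in OA. A vehicle-only H3K27me3 region lay at the most upstream start site, and no H3K27me3 was called at the internal site in any library. Hence 204 bp, or 10.2% of the H3K4me3 footprint in OA, lay on vehicle H3K27me3.

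PCDH1 (ENSG00000156453.14, chr5:141853090-141879246, minus strand) had an H3K4me3 peak beside its start site in vehicle replicates 1 and 2, and more bases covered in each OA library. Extent was 525, 640 and 0 bp in vehicle and 1229, 3005 and 3018 bp in OA (388 ± 341 and 2417 ± 1029 bp, SD, n = 3). The fold of the main peak over its local background was 6.31 and 6.86 in the first 2 vehicle libraries and 5.53, 6.61 and 6.44 in OA. In OA replicate 1 the main peak was 744 bp long, with 2 further peaks of 284 and 201 bp. An upstream region with no vehicle peak added 648 and 671 bp in OA replicates 2 and 3. The summit of the main peak had a pileup of 22 and 15 reads in these vehicle libraries and of 51, 135 and 175 in OA, and the local background was 2.64 and 1.33 against 8.41, 19.6 and 26.3 reads. Reads on the peak and reads around it were thus both higher in OA, and the fold overlapped between the groups. H3K27me3 extent was 1525, 2298 and 3057 bp in vehicle and 180, 0 and 237 bp in OA, without overlap. The vehicle H3K27me3 peaks nearest the start site lay in an intron. They began 747, 704 and 240 bp downstream of it in replicates 1, 2 and 3. The OA H3K4me3 peaks of replicates 2 and 3 reached 2358 and 2381 bp downstream of the start. New H3K4me3 covered 1655 bp, or 72.0% of the vehicle H3K27me3 footprint, and the OA H3K27me3 footprint was 0 bp.

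LRRN1 (ENSG00000175928.6, chr3:3799431-3849834, plus strand) had H3K4me3 extents of 0 bp in each vehicle library and 901, 1066 and 1764 bp in OA. Its H3K27me3 varied between vehicle libraries, with 1236, 240 and 0 bp, and was 0 bp in each OA library. In vehicle replicate 1 a peak 254 to 498 bp downstream ranked at percentile 93.1 of its list, and an upstream one at 9.16. The peak of vehicle replicate 2 ranked at percentile 0.550 of its list. The window of LRRN1 also holds a start site of SUMF1 on the other strand. The groups were thus separate for H3K4me3, while for H3K27me3 vehicle replicate 3 was at 0 bp like the OA libraries, so LRRN1 goes only part of the way with the label of a switch.

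**Figure D2:**
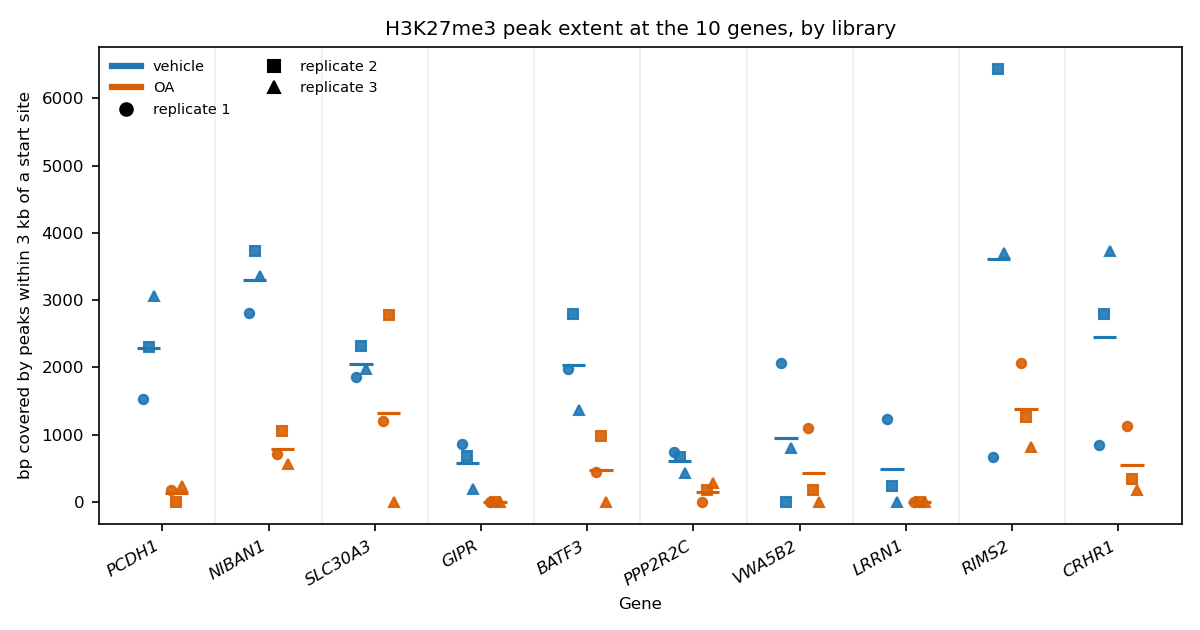
H3K27me3 extent in bp (y axis) at each gene (x axis) in 3 vehicle and 3 OA libraries. Each symbol is 1 library and each bar is a group mean. NIBAN1 and PCDH1 are separated widely (2801 to 3723 against 571 to 1061 bp, and 1525 to 3057 against 0 to 237 bp), and SLC30A3, VWA5B2, LRRN1, RIMS2 and CRHR1 overlap.

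The class B receptors both had H3K4me3 at or near their start sites in OA alone. GIPR (ENSG00000010310.9, chr19:45668221-45683722, plus strand) had H3K4me3 extents of 0 bp in each vehicle library and 689, 1435 and 1524 bp in OA (1216 ± 459 bp, SD, n = 3). Its H3K27me3 extents were 867, 688 and 197 bp in vehicle and 0 bp in each OA library. The H3K27me3 peaks of vehicle ranked at percentiles 37.2, 21.6 and 62.8, and with a q-value of at most 0.01 or the 9091 strongest peaks the difference was 0 bp because none was left. Its vehicle H3K27me3 footprint of 474 bp lay almost whole (99.8%) under the new H3K4me3. No H3K27me3 was called between 3 and 50 kb of a GIPR start site in any library, so these peaks stood alone. MIR642A and MIR642B start inside the same window.

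CRHR1 (ENSG00000120088.16, chr17:45784277-45835828, plus strand) had H3K4me3 extents of 0 bp in each vehicle library and 410, 387 and 960 bp in OA. The OA peaks lay from 371 to 780, 371 to 757 and -22 to 937 bp relative to the canonical start, so only that of replicate 3 crossed it. Their pileups were 16, 14 and 41 reads. H3K27me3 extents were 846, 2799 and 3727 bp in vehicle and 1124, 337 and 184 bp in OA, so the groups overlapped. The merged H3K27me3 region that spans the start site was called in vehicle replicates 2 and 3, in 0 OA libraries and not in vehicle replicate 1. The peak of vehicle replicate 3 crossed the start site, and those of vehicle replicate 2 lay on either side of it, from -2102 to -524 bp and from 199 to 809 bp. The whole H3K4me3 footprint in OA (410 bp, 100%) lay on vehicle H3K27me3. The vehicle H3K27me3 footprint was 1908 bp over all windows of the gene, those away from this start site included. An internal H3K27me3 region 21182 to 23124 bp downstream was called in all 3 vehicle and 2 OA libraries.

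At the genes of synaptic vesicle function only H3K4me3 of RIMS2 separated the groups. SLC30A3 (ENSG00000115194.11, chr2:27253684-27275817, minus strand) had H3K4me3 extents of 0 bp in each vehicle library and 0, 419 and 1203 bp in OA, and so was not covered in OA replicate 1. Its H3K27me3 extents were 1856, 2323 and 1972 bp in vehicle and 1201, 2774 and 0 bp in OA. OA replicate 2 kept an H3K27me3 peak of 1730 bp over the start site while it had H3K4me3 peaks of 227 bp there and 192 bp upstream. Of these, the start-site H3K4me3 peak lay inside the H3K27me3 peak, and both marks were thus called over the same bases in cells of the same condition and replicate number. DNAJC5G has a start site in the same window.

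RIMS2 (ENSG00000176406.25, chr8:103500610-104254430, plus strand) is a long gene with 20 annotated start sites. H3K4me3 extent was 839, 804 and 228 bp in vehicle and 1385, 1984 and 3798 bp in OA. All of the vehicle extent lay at an internal start site, 722515 to 723491 bp downstream of the canonical one, which was called in all 6 libraries and in untreated replicate 2 (578 bp). The canonical start site was OA-only, with peaks of 548, 894 and 2104 bp and pileups of 20, 27 and 56 reads. H3K27me3 extent was 669, 6440 and 3703 bp in vehicle and 2067, 1257 and 813 bp in OA, so the groups overlapped. The merged H3K27me3 region over the canonical start was called in all 6 libraries, with percentiles of 99.0, 97.2 and 83.8 for vehicle and of 83.8, 43.5 and 45.0 for OA. Near the canonical start, H3K4me3 of OA on bases that no vehicle library covered lay on 1012 bp of vehicle H3K27me3. Of these, 746 bp (73.7%) kept H3K27me3 in at least 2 of 3 OA libraries, whereas at the other 9 genes 0 bp did. PPP2R2C had 0 such bases to keep near its canonical start, and LRRN1 had 140 bp. A single OA library still had H3K27me3 on such bases at PCDH1 (replicate 3), SLC30A3 and NIBAN1 (replicate 2) and VWA5B2 (replicate 1). RIMS2 therefore had new H3K4me3 on a start site that still had H3K27me3 calls, and the label of a switch does not hold for its canonical start.

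Last, VWA5B2 (ENSG00000145198.15, chr3:184229585-184242329, plus strand) had H3K4me3 extents of 236, 0 and 0 bp in vehicle and 194, 1506 and 1508 bp in OA. The vehicle peak lay at an internal start site, and the OA peaks lay at the canonical one, from -113 to 1442 bp relative to it. H3K27me3 extents were 2070, 0 and 795 bp in vehicle and 1101, 175 and 0 bp in OA. Vehicle replicate 2, the list with the most H3K27me3 peaks (47648), had none here, and OA replicates 1 and 2 had some. Without vehicle replicate 1 the mean difference turned to 27.8 bp higher in OA. The H3K27me3 values of VWA5B2 go against the label of a switch, and its window also holds MIR1224.

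**Figure D3:**
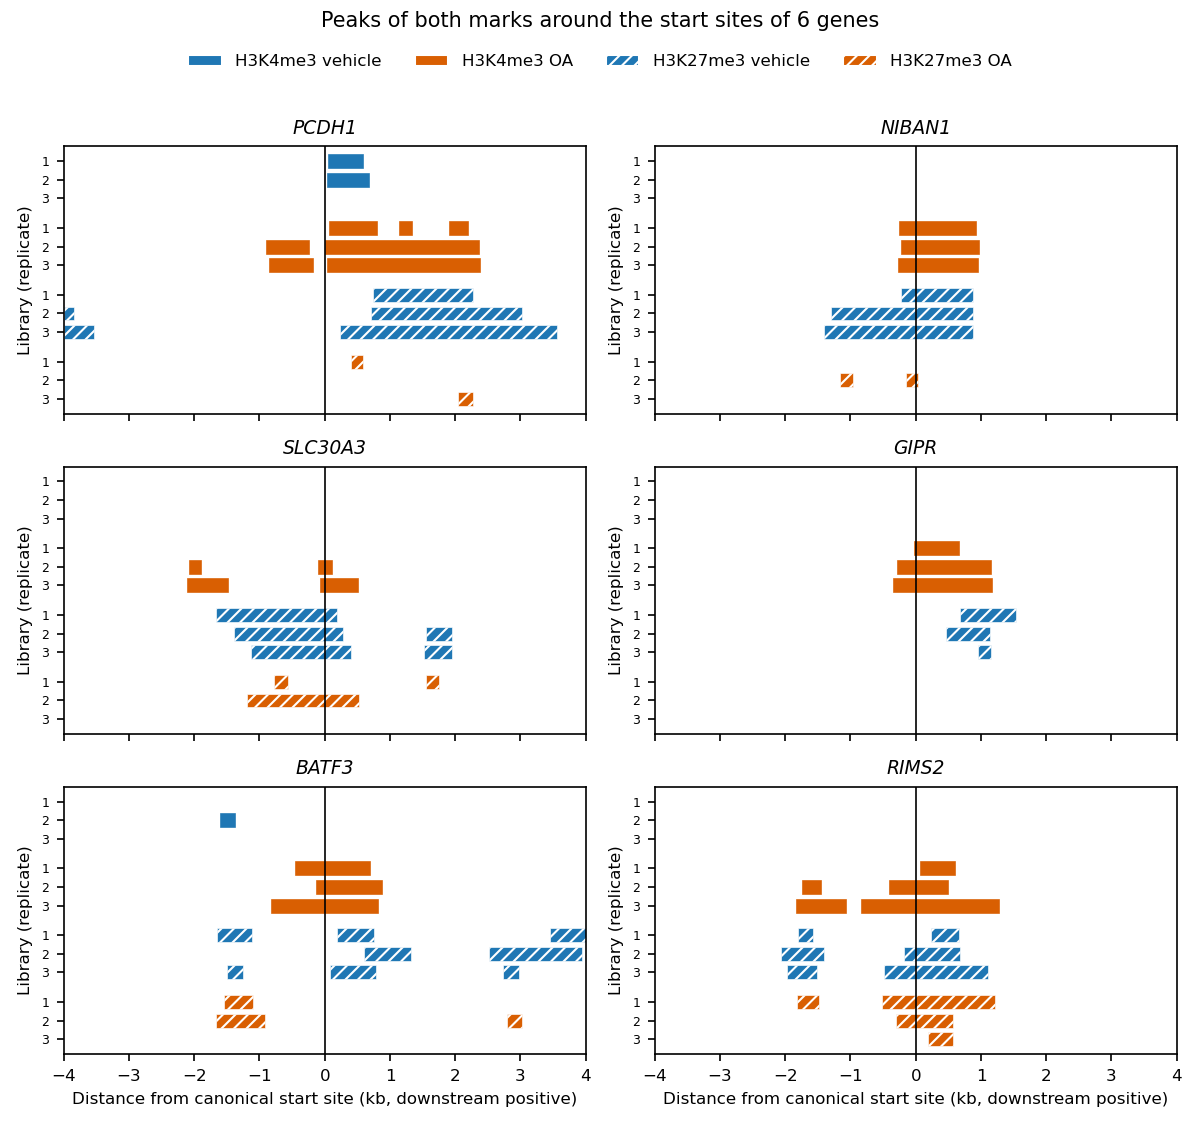
Peaks of 6 genes from 4 kb upstream to 4 kb downstream of the canonical start site (x axis, kb), 1 row per library, with replicates 1 to 3 from top to bottom in each block. Filled bars are H3K4me3, hatched bars H3K27me3, blue vehicle and orange OA. At NIBAN1 and GIPR the H3K4me3 bars appear in OA alone, and at RIMS2 hatched orange bars of all 3 OA libraries lie at or just downstream of the start site together with H3K4me3.

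The strength of the H3K4me3 peaks in OA was read from the pileup, the number of reads stacked at the summit, which was solved from the deposited fold and p-value. The strongest peak of each gene was taken, whether new or not. At PCDH1, PPP2R2C and RIMS2 it lay at a site that was also called in vehicle. In OA replicate 3 the strongest peak of a gene had 34 to 175 reads, from SLC30A3 to PCDH1. In OA replicate 1 it had 16 to 51 reads at the 9 genes with a peak, again highest at PCDH1. The percentiles of these peaks within their lists varied widely. At NIBAN1 they were 41.4, 54.6 and 85.7 for the OA libraries, and at CRHR1 they were 31.6, 21.0 and 47.8. The start-site peak of BATF3 ranked highest in OA replicate 3, at 90.1, and stood at 49.9 and 31.9 in the other OA lists. Peaks of vehicle replicate 3, the library with the lowest background (0.450 reads), were called at 1 of the 10 genes, RIMS2. The counts of OA-only regions and of separated H3K4me3 extents were both 8 without that library (1.40% and 6.22% of all genes).

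**Figure D4:**
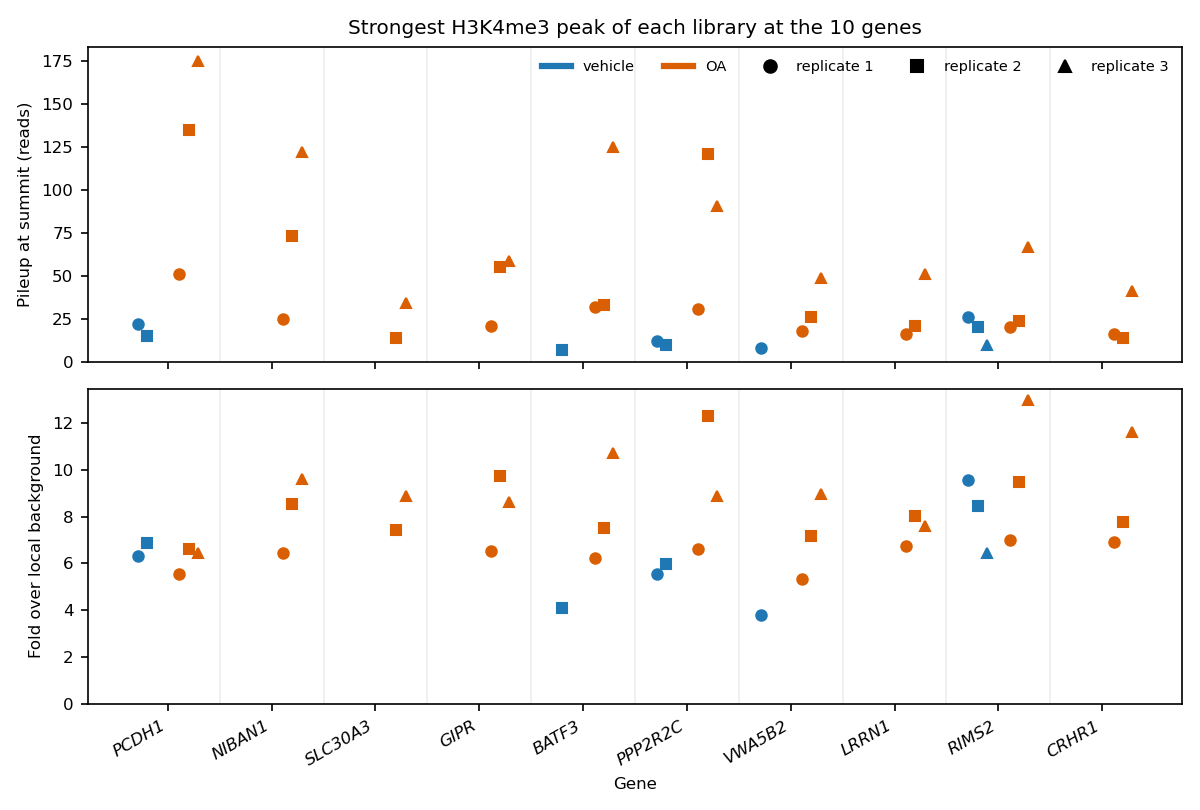
Pileup at the summit in reads (upper panel) and fold over the local background (lower panel) of the strongest H3K4me3 peak of each library at each gene. A missing symbol means no peak in that library. At PCDH1 pileups differ (15 and 22 against 51 to 175 reads) while folds overlap (6.31 and 6.86 against 5.53 to 6.61).

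Untreated cells offer H3K4me3 values that were not used to pick the genes, but they are not independent of the choice. The genes were picked for H3K4me3 that was new relative to vehicle cells of the same line, so few untreated peaks were likely. The untreated lists were also shorter than those of vehicle and OA, with 12924 and 11242 peaks over 8.09 and 6.58 Mb. In untreated cells 1 of 10 genes had a peak, RIMS2 at its internal start site, against 55.7% of all protein-coding genes. IgG libraries had a peak at 0 of 10 genes, against 1.19%. H3K27me3 was present in all 3 vehicle libraries at 8 genes, all but VWA5B2 and LRRN1, against 6.35% of all genes, and in all 3 OA libraries at 3 genes, NIBAN1, RIMS2 and CRHR1, against 2.79%. H3K4me3 was present in all 3 OA libraries at 9 genes (63.1% of all genes) and in all 3 vehicle libraries at 1 gene, RIMS2 (56.7%). More widely, 165 protein-coding genes had H3K4me3 in each OA library but in no vehicle one, and 54 of them (32.7%) had H3K27me3 in all 3 vehicle libraries. Of the 165, 7 (4.24%) had H3K4me3 in an untreated library. Among 617 other genes with an H3K4me3 footprint in OA and an H3K27me3 footprint in vehicle, 141 (22.9%) had any overlap of the footprints, and all 10 genes described here had one, as their choice required.

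**Figure D5:**
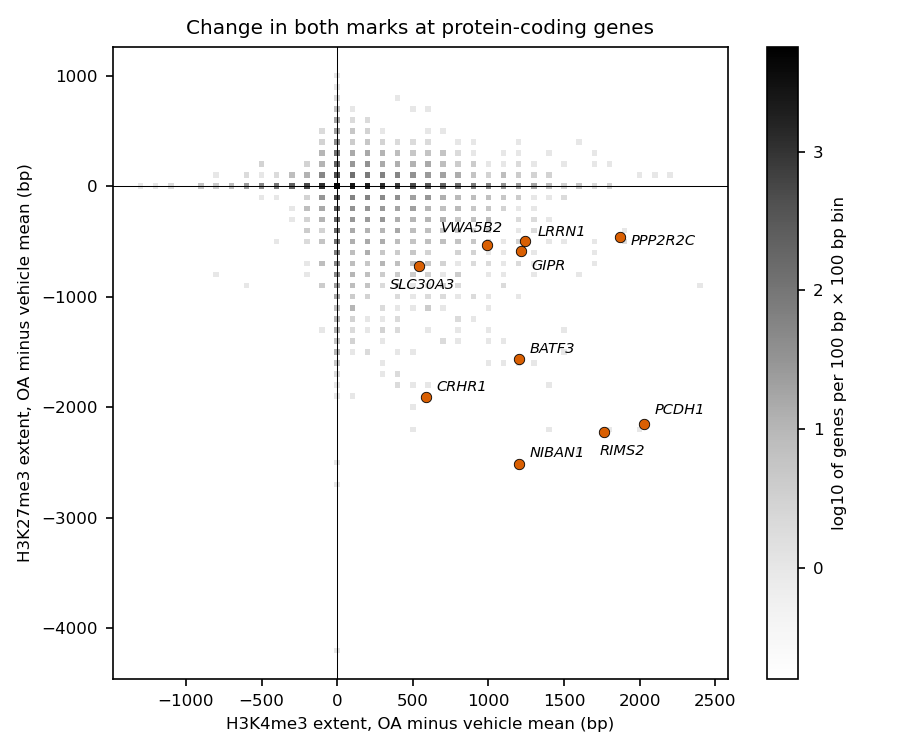
Change of mean extent, OA minus vehicle, in bp, of H3K4me3 (x axis) and H3K27me3 (y axis) for all protein-coding genes, counted in bins of 100 bp and shaded by the log10 of the number of genes. Orange points are the 10 genes, all in the lower right part, from 541 bp at SLC30A3 to 2029 bp at PCDH1 on the x axis and down to -2511 bp at NIBAN1 on the y axis.

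Another 4 genes had both an OA-only H3K4me3 region and a vehicle-only H3K27me3 region, the likeness used here, over 6 libraries of each mark. They were LINGO1, a neuronal membrane protein, WNK3, a kinase of ion transport, CAMK4, a calcium-dependent kinase, and SV2B, a synaptic vesicle glycoprotein. At LINGO1 H3K4me3 extent was 395, 184 and 434 bp in OA, and H3K27me3 extent was 3053, 4637 and 3842 bp in vehicle and 2846, 2331 and 1124 bp in OA. At WNK3 H3K4me3 was 201, 507 and 963 bp in OA, and H3K27me3 was 183, 1548 and 407 bp in vehicle and 0 bp in OA. At both genes H3K4me3 was 0 bp in each vehicle library. The mean H3K27me3 difference, OA minus vehicle, was -369 bp at CAMK4 and -291 bp at SV2B, with overlap between the groups at both (vehicle 745, 178 and 583 bp at CAMK4 and 492, 499 and 1090 bp at SV2B, OA 0, 399 and 0 bp at CAMK4 and 0, 343 and 866 bp at SV2B).

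The 47 paralogs of these genes, were listed by family and not by their values. An OA-only H3K4me3 region lay at 0 of the 47 (1.33% of all genes). Vehicle-only H3K27me3 regions lay at 2 of the 47, PTH1R and PPP2R2B (0.565% of all genes). At PPP2R2B the whole H3K27me3 extent overlapped between the groups, with 507, 1658 and 601 bp in vehicle and 1038, 1817 and 0 bp in OA. Summed over the paralogs, H3K4me3 extent was 24596, 25211 and 15833 bp in vehicle and 21323, 26448 and 31778 bp in OA. The difference of 4636 bp was smaller than the spread (21880 ± 5246 and 26516 ± 5228 bp, SD, n = 3, two-sided exact permutation test, p = 0.40, where 3 against 3 cannot go below 0.1). Summed H3K27me3 extent was 11710, 20837 and 11445 bp in vehicle and 17921, 10859 and 4269 bp in OA. The difference of -3648 bp was also within the spread (14664 ± 5348 and 11016 ± 6827 bp, SD, n = 3, exact permutation p = 0.40). Without OA replicate 3 that difference was -274 bp and without vehicle replicate 2 it was -561 bp.

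Families differed in which mark they carried. Among 13 other class B1 receptors, 10 had H3K27me3 in at least 1 library and 3 had H3K4me3. PTH1R, the parathyroid hormone receptor, had 1404, 171 and 430 bp of H3K27me3 in vehicle and 0 bp in each OA library, and its only H3K4me3 was 159 bp in vehicle replicate 3. Among 9 other SLC30 zinc transporters, 7 had H3K4me3, 6 of them in all 6 libraries, and SLC30A2 and SLC30A8 had H3K27me3 alone. Among 10 other non-clustered protocadherins, 7 had H3K4me3 and 4 had it in all 6 libraries. PCDH8 was higher in every OA library (641, 219 and 0 against 778, 745 and 757 bp), as was VWA5A, the paralog of VWA5B2 (435, 626 and 0 against 736, 858 and 883 bp). PPP2R2A and PPP2R2D had H3K4me3 in all 6 libraries, whereas PPP2R2B had it in OA replicate 3 alone (800 bp). BATF and BATF2 had neither mark. Of the ligands of the 2 receptors, CRH had H3K4me3 in all 6 libraries (631, 668 and 151 bp in vehicle and 464, 540 and 567 bp in OA), and GIP, UCN, UCN2 and UCN3 had none.

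Between 3 and 50 kb of their start sites, H3K4me3 extent was higher in every OA library at PPP2R2C alone (502, 529 and 249 bp in vehicle and 620, 913 and 1202 bp in OA). H3K27me3 extent in the flanks overlapped between the groups at the 8 genes that had any. At NIBAN1, for example, it was 14004, 18408 and 9184 bp in vehicle and 11885, 9662 and 2651 bp in OA. OA replicate 3, the list with the fewest H3K27me3 peaks, was the lowest there.

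Of the 15 kept H3K4me3 regions of the genes, 11 lay above the median of all H3K4me3 regions in CpG content and 4 below it, those of GIPR, upstream PCDH1, internal PPP2R2C and internal RIMS2. Their median ratio of observed to expected CpG was 0.782 and their median GC content 68.3%, beside 0.695 and 58.9% over all 18734 H3K4me3 regions and 0.695 and 65.6% over the 345 OA-only regions. PPP2R2C at its upstream start site had a ratio of 0.924 (percentile 95.2 of all regions) and CRHR1 0.882 (percentile 91.1). GIPR was the lowest of the 15 with 0.442 (percentile 21.0), which the GIPR sequence above shows as few capitals. In windows of 401 bp around the summits, on both strands, the E-box motif CAGCTG lay in 5 of 15 regions (22.2% of all regions) and CAGGTG in 3 of 15 (30.5%). The AP-1 site TGACTCA was found in 0 of 15 (9.88%), TGATGCAA, the core of an ATF4 composite site, in 0 of 15 (0.785%), and the cyclic AMP element TGACGTCA in 0 of 15 (1.10%). A match describes letters alone, and absence says only that these letters are not in these windows.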

How the data were processed

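The authors made a separate peak list for every library. The submitters' processing notes name MACS2 2.2.7.1, SICER, DiffBind 3.9, ChIPseeker 1.8.6 and hg38. The aligner, the treatment of duplicates and the use of a control in calling are not given in the sources used here. The H3K27me3 lists have the broadPeak layout of MACS2. The deposited fold (a ratio of peak to local background) and −log10 of the p-value and q-value are the authors' own, not scaled between libraries. Each list held at most a q-value of 0.01 (narrow) or 0.1 (broad).

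From these lists, peaks on the autosomes, X and Y were clipped to windows of 3 kb around every start site of 20007 protein-coding genes of GENCODE release 44, and 0 peaks ran past a chromosome end of hg38. Peaks of the 6 libraries of a mark were merged at 1 bp of overlap and kept with at least 2 libraries. Pileups of narrow peaks were solved from fold = (pileup + 1)/(background + 1) and the Poisson p-value, with a unique solution for 96.3% to 99.8% of vehicle and OA peaks tried. Depth was otherwise unknown. Summed paralog extents were compared by a two-sided exact permutation test, and no test was run on the 10 genes. Members and gene lists were chosen with earlier results of these data known. All 10 genes are named. Other genes are named where they hold an OA-only or vehicle-only region or go against their list, and the remaining ones as examples chosen after their values were seen. Replicate numbers were not used to pair libraries. Calculations were tested on simulated data. Software was Python 3.11.15 with scipy 1.17.1, numpy 2.4.6 and matplotlib 3.10.9. Alternatives were a stricter q-value (1e-05 for H3K4me3, 0.01 for H3K27me3), equal numbers of peaks, windows of 1 and 5 kb, a cover of 50% of a region, regions of any library, the removal of single replicates and a replicate block.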

Additional observations from a re-analysis of the deposited data

How the results depend on the processing

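Of the alternatives for the 4 counts over the genes and the 2 paralog sums, 61 left a count within 1.5 times or a sum with the same direction and no call, and 5 did not. This says nothing of which genes were counted or of the size of a sum: the 3 genes with a vehicle-only H3K27me3 region were replaced by 3 others at a q-value of at most 0.01, and the paralog H3K27me3 difference was -962 bp there and -209 bp with equal numbers of peaks, beside -3648 bp. With a cover of at least 50% of a region required, 5 genes instead of 8 had an OA-only H3K4me3 region (PCDH1, NIBAN1, BATF3, PPP2R2C and LRRN1, 1.42% of all genes). Genes with lower H3K27me3 extent in every OA library numbered 3 at a q-value of at most 0.01 and 2 with equal numbers of peaks, instead of 5, and the stricter settings hold fewer peaks by construction. Leaving out 1 replicate gave 8 to 10 genes with an OA-only H3K4me3 region (1.40% to 3.51% of all genes), 8 to 10 with higher H3K4me3 extent (6.22% to 22.1%), 5 to 7 with lower H3K27me3 extent (1.62% to 3.86%) and 3 to 6 with a vehicle-only H3K27me3 region (0.655% to 2.16%, 6 without vehicle replicate 1 and 5 without vehicle replicate 3). Both 10s came without OA replicate 1, where both shares of all genes were at their highest. The paralog differences then ranged from 1613 to 7233 bp for H3K4me3 and from -7100 to -274 bp for H3K27me3. For single genes, 183 alternatives moved a difference by no more than the spread between replicates, 15 by more, and 2 reversed its sign. Where that spread was wide the move could be large, as for H3K27me3 at SLC30A3 (-725 bp, and -62.8 bp without OA replicate 3) and RIMS2 (-2225 bp, and -424 bp with equal numbers of peaks). The reversed H3K27me3 difference was 56 bp at BATF3 with equal numbers of peaks and 27.8 bp at VWA5B2 without vehicle replicate 1 (-1007 bp without vehicle replicate 2), and the cause was not tested. Same-numbered vehicle and OA libraries deviated together in some pairs only (correlations across genes of -0.0767, 0.342 and -0.257 for H3K4me3 and -0.0126, 0.164 and 0.107 for H3K27me3), so the numbers were not taken as pairs, and not every library correlated best with its own number. With the replicate block, the paralog differences of 4636 and -3648 bp had p = 0.75 and p = 0.50 (exact sign-flip test, smallest possible 0.25), which changed no call. Weak signal in a shallow library may go uncalled, so the absence of a call is not the absence of a mark.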
